A study of Mus musculus with 6 samples.

Results

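The 40 genes described here encode the machinery that copies DNA in S phase: origin recognition and licensing factors, the MCM helicase and its activators, polymerases and primase, the sliding clamp and its loader, single-strand binding and ligation proteins, enzymes of nucleotide supply, and chromatin factors that act behind the fork. They were chosen by gene symbol, with earlier results of these data known. All 40 were among the 23337 genes of the deposited tables and among the 13442 that passed the filter on low counts. They were measured by RNA sequencing in stromal fibroblasts cultured from the mammary glands of C57BL/KaLawRij mice aged 7 weeks. The 2 groups were cpdm/cpdm mice, which lack SHARPIN (Sharpin-cpdm, 3 libraries), and wt/wt mice (wild type, 3 libraries). Each library came from the pooled glands of 3 mice, and its cells were freed with collagenase, separated by centrifugation and grown at passage 0 in serum-containing medium to confluence. Every cell of a cpdm/cpdm animal carries the allele, so it is not limited to fibroblasts. The comparison asks whether replication transcripts of these confluent cultures differ when SHARPIN, which helps build linear ubiquitin chains and inhibits integrins, is missing.

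DNA replication starts at origins that the origin recognition complex marks in G1, where CDC6 and CDT1 load the MCM helicase in an inactive form. At the start of S phase CDC45 and the GINS complex join the helicase, primase and the polymerases follow, and PCNA, loaded by replication factor C, holds the polymerases on DNA. Most of these genes are transcribed late in G1 by E2F factors, which RB proteins hold silent in resting cells, so their transcripts are low in a population at rest and are widely used as markers of cells in the cycle. In bulk RNA a smaller share of cycling cells and less RNA per cycling cell cannot be told apart.

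Depth was even, at 13570649 to 15656196 counts assigned to genes per library, so that 1 count stood for 0.0639 to 0.0737 CPM (counts per 1000000 counts assigned to genes). Over the 40 genes the counts ran from 43 for Gins1 in wild-type library 3, with an exact 95% Poisson interval of 31.1 to 57.9 that covers counting error only, to 4414 for Rrm1 in Sharpin-cpdm library 2. Sharpin itself was lower in the mutant pools (10.5, 9.13 and 9.51 CPM) than in the wild-type pools (24.5, 25.2 and 31.2 CPM), with no overlap. Fibroblast markers came to 72900 to 98200 CPM in sum over the 6 libraries, and Col1a1 alone to between 20050 and 24700 CPM. Pdgfra, Dcn and Lum varied more, at 216 to 1165, 325 to 1982 and 38.5 to 172 CPM. These genes were lowest in library 2 of both genotypes, whereas others of the list, such as Vim at 2739 to 3240 CPM, varied little. Adipoq, Wap and Csn2, which define adipocytes and milk-producing epithelium, were at 0 to 0.201 CPM. Other genes of these lists were present in every library, among them Lpl at 271 to 1389, Fabp4 at 22.9 to 82.8, Krt8 at 38.8 to 130 and Epcam at 17.3 to 56.7 CPM. Likewise, the endothelial genes Pecam1 and Cdh5 were present in every library, at 79.1 to 236 and 111 to 311 CPM. The leukocyte gene Lyz2 was at 46.3 to 294.5 CPM and was highest in library 2 of both genotypes.

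E2F sites are a known feature of replication gene promoters, so the windows from 250 bases before to 50 bases after each RefSeq start (GRCm38.p6) were searched for the words TTTCCCGC, TTTGGCGC, TTTCGCGC and TTTGCCGC on both strands. Of the 33 genes with a window in the RefSeq table, 13 (39.4%) held at least 1 of these words, beside 4.61% of the 9559 tested genes with a window and 2.60% of all 27025 genes with one. The CCAAT word, bound by NF-Y, stood in 63.6% of the 33, in 42.7% of the tested genes and in 84.8% of the 33 mitosis genes with a window, of which 9.09% held an E2F word. The stretches of 160 bases before the start are shown for Mcm6, Mcm5, Orc1 and Cdc6, which hold E2F words there, and for Rrm1 and Rpa1, the genes that passed a test below and whose windows hold CCAAT but none of the 4 E2F words. Capitals mark E2F and CCAAT words in either direction, and in Mcm6 and Mcm5 a pair of E2F words overlaps.
Mcm6, chr1:128359706-128359865, minus strand: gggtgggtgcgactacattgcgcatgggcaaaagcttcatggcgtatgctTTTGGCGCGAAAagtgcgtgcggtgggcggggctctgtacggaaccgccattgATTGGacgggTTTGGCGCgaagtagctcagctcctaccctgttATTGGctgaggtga
Mcm5, chr8:75109349-75109508, plus strand: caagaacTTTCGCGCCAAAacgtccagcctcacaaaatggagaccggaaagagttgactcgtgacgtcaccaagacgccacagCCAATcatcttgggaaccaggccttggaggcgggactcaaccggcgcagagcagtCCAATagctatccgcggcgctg
Orc1, chr4:108579294-108579453, plus strand: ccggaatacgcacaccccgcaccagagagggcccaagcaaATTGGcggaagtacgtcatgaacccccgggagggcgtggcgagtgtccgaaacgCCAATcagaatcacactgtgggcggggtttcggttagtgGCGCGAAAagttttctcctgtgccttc
Cdc6, chr11:98907991-98908150, plus strand: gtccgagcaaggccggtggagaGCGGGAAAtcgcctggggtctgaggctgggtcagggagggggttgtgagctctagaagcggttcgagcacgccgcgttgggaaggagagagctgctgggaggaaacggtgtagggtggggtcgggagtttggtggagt
Rrm1, chr7:102441535-102441694, plus strand: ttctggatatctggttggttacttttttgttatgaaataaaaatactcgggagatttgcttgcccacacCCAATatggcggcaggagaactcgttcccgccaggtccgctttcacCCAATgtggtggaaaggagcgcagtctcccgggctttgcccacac
Rpa1, chr11:75348384-75348543, minus strand: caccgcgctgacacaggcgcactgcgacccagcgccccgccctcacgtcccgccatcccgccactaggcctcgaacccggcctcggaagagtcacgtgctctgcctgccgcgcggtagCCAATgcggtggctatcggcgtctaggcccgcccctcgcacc
The stretch of Cdc6 and the end of that of Orc1 lie before the RefSeq start but inside the GENCODE gene. A match is a description of letters and not of binding.

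The levels of the 40 genes followed the replicate number before they followed the genotype. Library 2 was the highest of its genotype in both genotypes for 34 of the 40, against 22.7% of all tested genes, and the order library 2, then 1, then 3 held within both genotypes for 30 of the 40, against 12.7%. Wild-type library 3 was the lowest of all 6 for 38 of the 40 (95%), against 26.2% of tested genes. Summed over the 40 genes, CPM came to 1487, 1977 and 1158 in wild-type libraries 1 to 3 and to 1727, 2104 and 1501 in the Sharpin-cpdm ones. The groups therefore overlapped, with wild-type library 2 above Sharpin-cpdm libraries 1 and 3. The median log2 difference between wild-type libraries 2 and 3 was 0.73 over the 40 genes and -0.03 over all tested genes, and between Sharpin-cpdm libraries 2 and 3 it was 0.47 and -0.09.

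**Figure D1:**
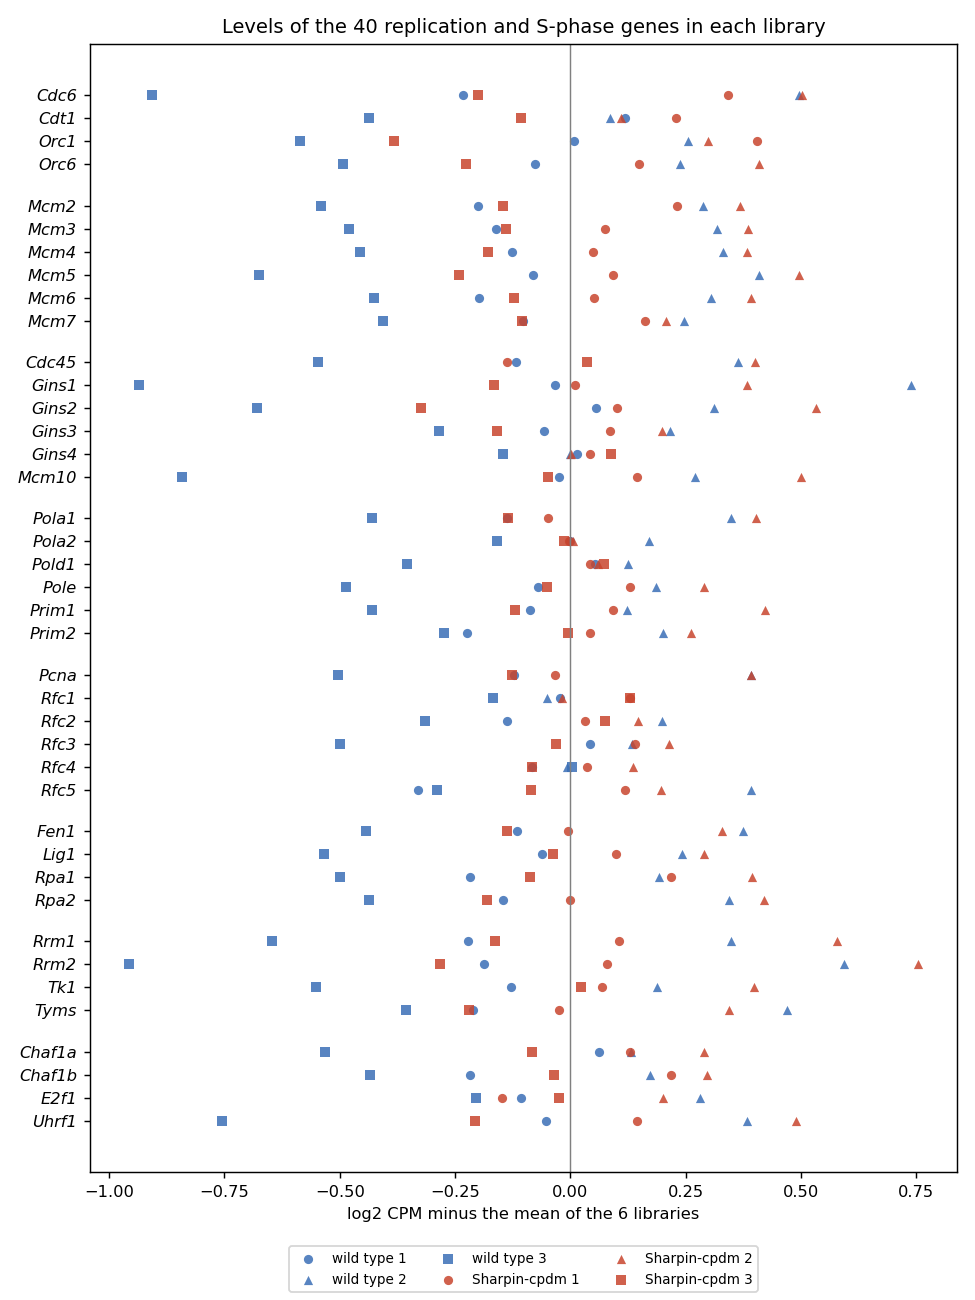
Level of each of the 40 genes in each library, as log2 CPM minus the gene's mean over the 6 libraries, with genotype shown by colour and replicate number by shape, and rows grouped by role. Wild-type library 3 (blue squares) is the lowest of the 6 for 38 of 40 genes, and the triangles of library 2 lie to the right in both genotypes.

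Between genotypes, 2 of the 40 genes, Rrm1 and Rpa1, were called higher in Sharpin-cpdm when same-numbered libraries were compared, and 38 were not called. The pairing by number was inferred from these same data, and the fit without it is the main one. Without the replicate number in the model, edgeR (quasi-likelihood, p-values adjusted by Benjamini-Hochberg) called 0 of the 40 higher and 0 lower, beside 0% of tested genes in each direction. At an unadjusted p under 0.05 the same test held 0 of the 40 and 0.521% of all tested genes on the higher side, and DESeq2 and limma-voom also called 0 of the 40. Sharpin, whose groups did not overlap, was not called by edgeR without the block either (log2 fold change -1.49, adjusted p = 0.272). It was called with the block (edgeR, adjusted p = 0.00598) and by DESeq2 without it (adjusted p = 1.3e-12). The 0 calls without the block therefore do not show that the 40 genes were unchanged. With the replicate number as a block, edgeR's test called 2 of 40 higher and 0 lower, where 0.394% of tested genes were called higher and 2.11% lower (53 and 284 genes, or 162 and 300 when offsets for GC content and length were added). On the unadjusted scale with the block, 19 of the 40 were higher at a p under 0.05, beside 7.49% of tested genes, and 0 were lower. That count of the 40 was 5 with DESeq2 and the block, and 6 with the block in edgeR without pair 3. In the other alternative fits with the block it ran from 16, without pair 1, to 24, with GC and length offsets. The share of all tested genes was not counted in these alternative fits, so the counts have no background beside them. The log2 fold change with the block was above 0 for 39 of the 40, against 49.5% of tested genes, and its median was 0.19, or 1.14-fold, against -0.002 over all genes. Without the block 38 of the 40 were above 0, against 49.1% of tested genes, and the median was 0.18. In the same libraries 14 of 19 endothelial markers were called lower with the block, at a median log2 fold change of -0.78 and sums of 594 to 870 CPM in Sharpin-cpdm and 787 to 1390 CPM in wild type. Also called lower with the block were 4 of 17 fibroblast markers (sums of 72900 to 90100 CPM in the mutant and 75200 to 98200 CPM in the controls), 3 of 9 pericyte markers (776 to 1050 against 912 to 1240 CPM) and 2 of 3 adipocyte markers (312 to 681 against 459 to 1480 CPM). Of 9 epithelial markers (180 to 385 against 278 to 492 CPM) and 8 leukocyte markers (131 to 330 against 69.7 to 388 CPM) 0 were called. The sums cover every listed gene, tested or not. Within the adipocyte sum, Lpl alone came to 271 to 631 CPM in the mutant and 380 to 1389 CPM in the controls. The part of these markers in the result was not tested.

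**Figure D2:**
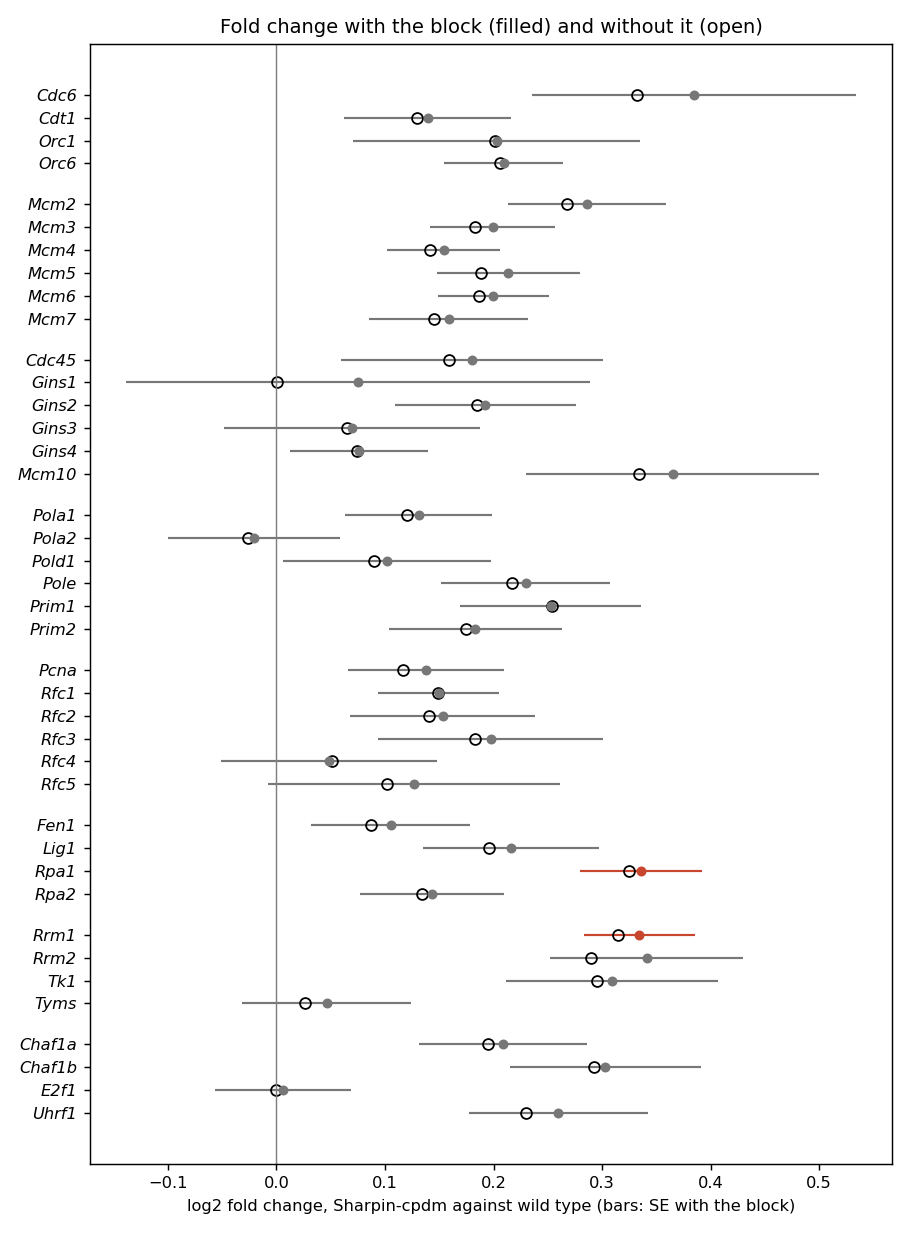
Log2 fold change of Sharpin-cpdm against wild type for the 40 genes, with the replicate block (filled, bars show the standard error) and without it (open), with calls at an adjusted p of 0.05 in red. Values lie between -0.02 and 0.38 with the block, and Rrm1 and Rpa1 are the 2 calls.

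The size of the difference depended on the pair of libraries. The median log2 ratio of Sharpin-cpdm to wild type over the 40 genes was 0.17 between libraries 1, 0.06 between libraries 2 and 0.35 between libraries 3, while that of all tested genes was 0.01, -0.01 and 0.04. Of the 40 genes, 36, 30 and 39 were higher in Sharpin-cpdm in pairs 1, 2 and 3, and 28 were higher in all 3 pairs (70.0%), against 22.7% of tested genes. Only 1 of the 40 genes, Rfc1, had groups that did not overlap, a share of 2.50% beside 3.35% of tested genes with Sharpin-cpdm higher. With Sharpin-cpdm lower it was 0 of the 40, beside 2.59%. For 39 of the 40 the range between the wild-type libraries was larger than the fold change between genotypes, which was also so for 92.9% of all tested genes. The median range was 0.735 on the log2 scale for the 40 genes and 0.398 for all tested genes. In the fit without the block, the median fell to 0.01 without wild-type library 3 and to 0.03 without Sharpin-cpdm library 2, and rose to 0.40 without wild-type library 2.

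**Figure D3:**
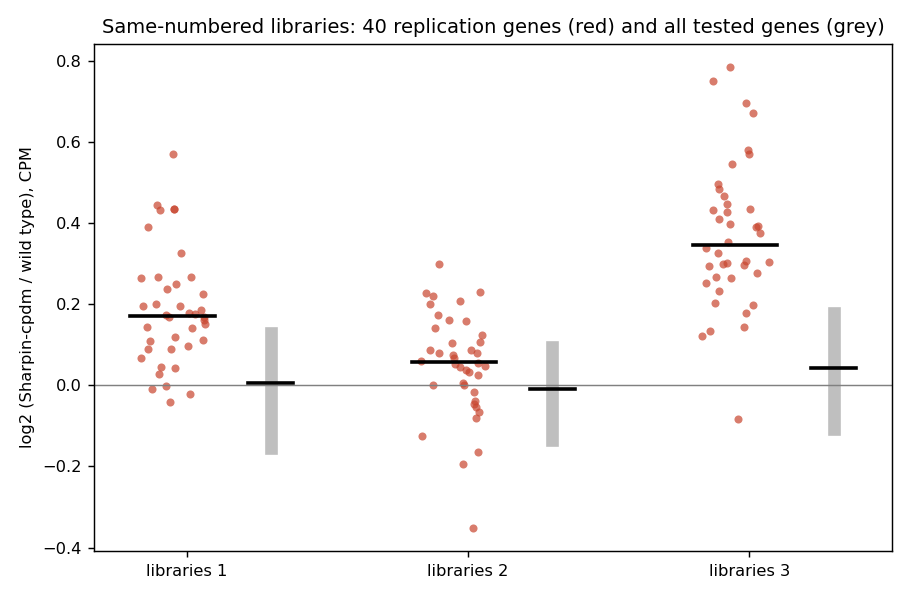
Log2 ratio of Sharpin-cpdm to wild-type CPM within each pair of same-numbered libraries, with 1 red point per gene for the 40 replication genes and a black line at their median; the grey bar spans the middle of all tested genes from the lower to the upper quartile, with a line at their median. Medians of the 40 genes are 0.17, 0.06 and 0.35.

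Of the 4 nucleotide supply genes 1 was called with the block and 0 without it. Rrm1, the large subunit of ribonucleotide reductase, which turns ribonucleotides into deoxyribonucleotides, stood at 231, 320 and 192 CPM in mutant pools 1 to 3 against 184, 273 and 137 CPM in the wild-type pools of the same number, the controls. It was higher in Sharpin-cpdm in every pair, by 0.33, 0.23 and 0.48 on the log2 scale, although wild-type library 2 exceeded Sharpin-cpdm libraries 1 and 3. With the block its log2 fold change was 0.33 ± 0.05 (SE, n = 3 pairs), or 1.26-fold (edgeR, adjusted p = 0.0299). Without the block it was 0.31 ± 0.31 (SE, n = 3 per group; edgeR, adjusted p = 1.00). The call with the block was kept without pair 1 (adjusted p 0.0228 in edgeR's test) and lost without pair 2 (0.0808) or pair 3 (0.152). Rrm2, the small subunit, whose level limits the enzyme outside S phase, stood at 71.0, 113 and 55.2 CPM in mutant pools 1 to 3 against 58.9, 101 and 34.6 CPM in their controls. Its log2 fold change with the block was 0.34 ± 0.09, the largest of the group (edgeR, adjusted p = 0.124). Rrm2 also differed most between replicates here, by 1.55 on the log2 scale between wild-type libraries 2 and 3. Tk1, thymidine kinase, had a log2 fold change of 0.31 and Tyms, thymidylate synthase, one of 0.05, neither of them called.

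Among the proteins that coat, trim and join the new strands, Rpa1 was called with the block only. Rpa1, the large subunit of the single-strand binding protein RPA, stood at 114, 129 and 92.6 CPM in mutant pools 1 to 3 against 84.5, 112 and 69.6 CPM in their controls. Sharpin-cpdm was higher in each pair, and wild-type library 2 lay within the Sharpin-cpdm range. The log2 fold change with the block was 0.34 ± 0.06 (SE, n = 3 pairs), or 1.26-fold (edgeR, adjusted p = 0.0395), and without the block 0.32 ± 0.22 (adjusted p = 1.00). Leaving out pair 2 or pair 3 raised the adjusted p of edgeR's test with the block to 0.0685 and 0.199, and leaving out pair 1 gave 0.0406. Its partner Rpa2 had a log2 fold change of 0.14, the flap nuclease gene Fen1 one of 0.11 and Lig1, the ligase that joins Okazaki fragments, one of 0.22, and these 3 were not called.

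Of the origin recognition and licensing genes none was called. Orc6, a subunit of the origin recognition complex, had the smallest p, at 39.1, 46.8 and 30.1 CPM in mutant pools 1 to 3 against 33.4, 41.5 and 25.02 CPM in their controls. Every pair was higher in Sharpin-cpdm, by 0.22, 0.17 and 0.27 on the log2 scale, and the log2 fold change with the block was 0.21 ± 0.05 (edgeR, adjusted p = 0.127). Cdc6, the loader of the helicase, had the largest fold change of all 40, at 0.38 ± 0.15 (paired edgeR, adjusted p = 0.264). Its levels were at 14.5, 16.2 and 9.97 CPM in mutant pools 1 to 3 against 9.75, 16.2 and 6.12 CPM in their controls, so that libraries 2 were level and libraries 1 and 3 were apart. Orc1, the largest subunit of the complex, and Cdt1, the licensing partner of CDC6, had log2 fold changes of 0.20 and 0.14.

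The 6 MCM helicase genes had library 2 as the highest of each genotype and library 3 as the lowest, and all 6 had a log2 fold change above 0, from 0.15 for Mcm4 to 0.29 for Mcm2. Mcm2 stood at 73.3, 80.5 and 56.4 CPM in mutant pools 1 to 3 against 54.2, 76.1 and 42.9 CPM in their controls. With the block its log2 fold change was 0.29 ± 0.07 (edgeR, adjusted p = 0.120), and none of the 6 was called. Summed over the 6, levels came to 456, 556 and 382 CPM in the mutant pools against 383, 531 and 302 CPM in the controls. The proteins form a ring with 1 copy of each. Per kilobase of the principal GENCODE transcript their mean levels over the 6 libraries ran from 14.2 CPM for Mcm7 to 37.8 CPM for Mcm6, with the other 4 between 18.95 and 23.1 CPM. Mcm7 shares exon positions with Ap4m1, Cops6 and the microRNA genes Mir25 and Mir93, so its counts are less certain.

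Of the helicase activation genes none was called. Mcm10, which links the helicase to the primase, stood at 13.9, 17.8 and 12.2 CPM in mutant pools 1 to 3 against 12.4, 15.2 and 7.03 CPM in their controls. The genotypes lay furthest apart in pair 3, by 0.78 on the log2 scale, and the log2 fold change with the block was 0.37 ± 0.13 (edgeR, adjusted p = 0.243). Gins1 and Gins4, subunits of the GINS complex singled out after their values were seen, showed opposite extremes of wild-type spread within this group. Gins1 differed by 1.67 on the log2 scale between wild-type libraries 2 and 3 and had a log2 fold change of 0.08 ± 0.21, while Gins4 lay between 32.3 and 37.95 CPM in all 6 libraries. The other members of this group, Cdc45, Gins2 and Gins3, had log2 fold changes of 0.18, 0.19 and 0.07.

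Of the polymerase and primase genes none was called. Prim1, the catalytic subunit of primase, stood at 17.8, 22.3 and 15.3 CPM in mutant pools 1 to 3 against 15.7, 18.1 and 12.4 CPM in their controls. All 3 pairs were higher in Sharpin-cpdm, and the log2 fold change with the block was 0.25 ± 0.08 (edgeR, adjusted p = 0.198). Pole, the catalytic subunit of the leading-strand polymerase, had 0.23, Prim2 0.18, Pola1 0.13 and Pold1, of the lagging-strand polymerase, 0.10. Pola2, the accessory subunit of polymerase alpha, was the only gene of the 40 with a log2 fold change below 0 in the fit with the block, at -0.02 ± 0.08, and it was above 0 when GC and length offsets were added (0.015) or pair 2 was left out (0.048).

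Of the clamp and clamp loader genes none was called. Pcna, the sliding clamp, stood at 46.6, 62.6 and 43.6 CPM in mutant pools 1 to 3 against 43.8, 62.5 and 33.6 CPM in their controls. Libraries 1 and 2 differed little between genotypes and library 3 carried most of the log2 fold change of 0.14 ± 0.07 with the block (adjusted p 0.396 in edgeR's test). Rfc1, the large subunit of the clamp loader, stood at 72.4, 65.5 and 72.4 CPM in mutant pools 1 to 3 against 65.2, 63.9 and 59.0 CPM in their controls. It did not show the peak in library 2, and its log2 fold change with the block was 0.15 ± 0.06 (edgeR, adjusted p = 0.246). Rfc3 stood at 16.9, 17.8 and 15.0 CPM in mutant pools 1 to 3 against 15.8, 16.8 and 10.8 CPM in their controls, with a log2 fold change of 0.20 ± 0.10. Rfc4, singled out after its values were seen, was the single gene of the 40 that was lower in Sharpin-cpdm in pair 3, by 0.08 on the log2 scale. Rfc2 and Rfc5 had log2 fold changes of 0.15 and 0.13.

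Of the chromatin factors, Chaf1b, a subunit of the histone chaperone CAF-1, had the smallest p. It stood at 23.2, 24.5 and 19.5 CPM in mutant pools 1 to 3 against 17.2, 22.5 and 14.8 CPM in their controls, with a log2 fold change of 0.30 ± 0.09 (paired edgeR, adjusted p = 0.157). Uhrf1, which recruits the maintenance methyltransferase to new DNA, and Chaf1a had 0.26 and 0.21. E2f1, the transcription factor that drives many of these genes, had the log2 fold change nearest to 0 of the 40 with the block. It stood at 37.1, 47.3 and 40.4 CPM in mutant pools 1 to 3 against 38.2, 50.01 and 35.7 CPM in their controls, lower in Sharpin-cpdm in pairs 1 and 2 and higher in pair 3. Its log2 fold change with the block was 0.01 ± 0.06 (edgeR, adjusted p = 0.975), while library 2 was its highest in both genotypes.

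Genes with and without an E2F word are described by their medians only. The 13 genes with a word had a median log2 fold change of 0.20 with the block and the 20 with a window and no word one of 0.19. Some genes, such as Lig1, have several windows. The windows of E2f1 and Cdc6 lie inside their GENCODE genes, as do some windows of Lig1, Uhrf1 and Mcm7. The split is therefore not a clean one. Between libraries 2 and 3 the medians were 0.78 and 0.74 on the log2 scale in wild type and 0.52 and 0.47 in Sharpin-cpdm. By position, 7 of the 40 genes lie on chromosome 5 and 6 on chromosome 8, shares of 17.5% and 15.0% beside 6.29% and 5.21% of the tested genes.

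Genes of the same pathway outside the 40 were looked at in 4 lists, also chosen with earlier results of these data known. Of all tested genes, 0.394% were called higher with the block, 2.11% were called lower and 49.5% had a log2 fold change above 0. Of 34 tested further replication factors 0 were called and 29 had a log2 fold change above 0 with the block, at a median of 0.09. Dbf4, the activator of the CDC7 kinase, and Pole3, a small subunit of polymerase epsilon, had the smallest p, at 0.28 ± 0.06 and 0.26 ± 0.07 (edgeR, adjusted p = 0.0675 and 0.132). Of 17 further nucleotide genes 1 was called, Dut, which removes dUTP, at 0.30 ± 0.05 (paired edgeR, adjusted p = 0.0452), and the median was 0.15. The call of Dut was absent without the block (edgeR, adjusted p = 1.00), with DESeq2 and the block (0.207), and without pair 1 (0.0575), pair 2 (0.119) or pair 3 (0.209). Of 31 further S-phase genes 0 were called, 28 were above 0 and the median was 0.18, with the histone chaperone gene Nasp at 0.27 ± 0.06 and Ccne1, cyclin E1, at 0.32 ± 0.08. Of 24 E2F and RB regulators 1 was called, Ccnd1, cyclin D1, at 86.1, 107 and 84.5 CPM in mutant pools 1 to 3 against 63.6, 80.8 and 61.8 CPM in their controls. Ccnd1 was higher by between 0.41 and 0.45 on the log2 scale in every pair and its groups did not overlap, while the median of the 24 was 0.04. Ccnd1 was the only 1 of the 24 without overlap, a share of 4.17% beside 3.35% of tested genes with Sharpin-cpdm higher. Its adjusted p in edgeR was 0.0109 with the block, 1.00 without it, and 0.0607 and 0.0664 with the block but without pair 2 or pair 3.

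Mitosis genes, which act after S phase, are given for comparison. This list too was chosen with earlier results of these data known. Its counts beside the shares of tested genes are therefore a description only. All 40 mitosis genes were above 0 with the block, at a median of 0.25, beside 39 of the 40 replication genes at 0.19. In all 3 pairs 38 were higher, beside 28 replication genes and 22.7% of tested genes. At an unadjusted p under 0.05 in edgeR with the block 36 were higher, beside 19 and 7.49%. Of the 40 mitosis genes 12 had groups that did not overlap, with Sharpin-cpdm higher, beside 3.35% of tested genes. With the block 4 were called higher, beside 0.394% of tested genes. These were Psrc1, of the spindle (log2 fold change 0.72 ± 0.10), Anln, of the contractile ring (0.34 ± 0.05), Prc1, which bundles the central spindle (0.29 ± 0.04), and Bub1b, of the spindle checkpoint (0.41 ± 0.07). None of the 4 was called without the block, or with it when pair 2 or pair 3 was left out, and DESeq2 with the block did not call Prc1 or Bub1b. The sum over the 40 mitosis genes was 2175, 2107 and 1633 CPM in the controls and 2555, 2325 and 2182 CPM in the mutant pools, so that library 1 was the highest of both. The sum of the 40 replication genes divided by that of the 40 mitosis genes was 0.684, 0.938 and 0.709 in the controls, and 0.676, 0.905 and 0.688 in the mutant pools. This ratio was higher in library 2 than in the other libraries of both genotypes; no test was made of the ratio.

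**Figure D4:**
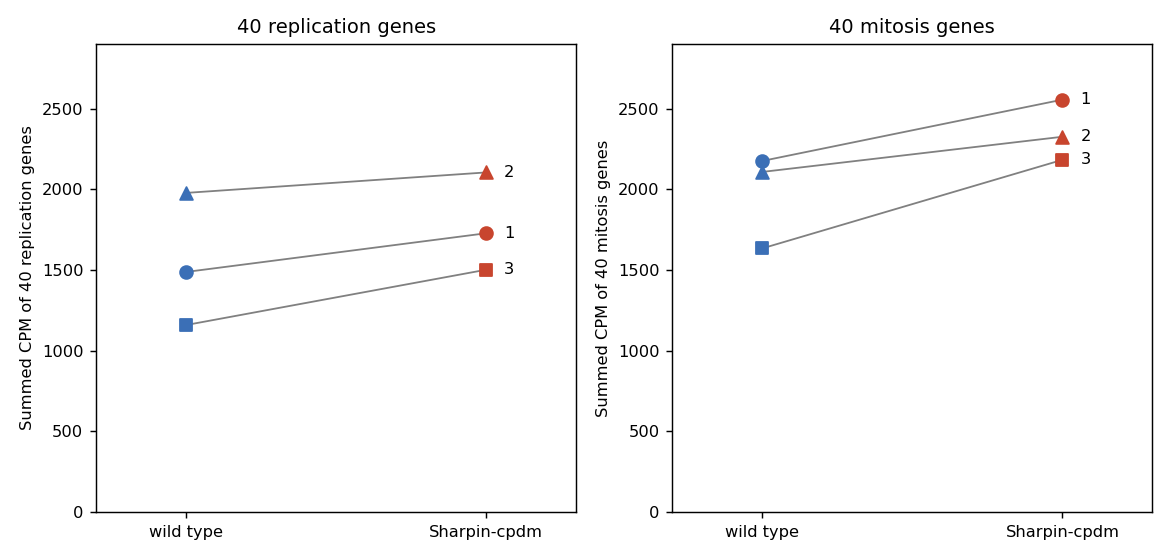
Summed CPM of the 40 replication genes (left) and of 40 mitosis genes (right) in each library, with grey lines joining same-numbered libraries and the axes starting at 0. The replication sum is highest in library 2 of both genotypes (1977 and 2104 CPM), whereas the mitosis sum is highest in library 1 (2175 and 2555 CPM).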

How the data were processed

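Per the submitters' processing notes, the authors used bcl2fastq 1.8.4, TopHat2 2.0.10 and HTSeq 0.5.4p3 with the mm10 build. The annotation used, strandedness and overlap handling are not given in the sources used here. For each library the authors deposited 1 table of raw counts by gene symbol. Its 5 summary rows, 48.8% to 51.2% of the entries, were left out. CPM is counts per 1000000 over gene rows. Genes were tested in R 4.3.3 with edgeR 4.0.16 (filterByExpr, TMM factors of 0.969 to 1.03, quasi-likelihood F-test, two-sided, Benjamini-Hochberg over 13442 genes, threshold 0.05). DESeq2 1.42.0, limma 3.58.1, other scalings, no filter, GC and length offsets and left-out libraries were alternatives. The test was also run on simulated counts with known fold changes. The outcome of that run is not given here, so it says nothing about the error rate or power of the calls, with or without the block. The standard error of a gene was obtained from its fold change and F value (absolute log2 value over root F).

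The labels number the libraries 1 to 3 in both genotypes without saying what a number marks. Deviations from the group means correlated over genes at 0.457, 0.809 and 0.737 for same-numbered libraries and at 0.007 or less for others, and same-numbered libraries were therefore treated as pairs, a choice that rests on the data. The fit without the block is the main one, and values with the block stand beside it. Libraries of a genotype came from separate pools of mice.

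The 40 genes and the gene lists were chosen with earlier results of these data known. Values in every library are given for called genes, for the smallest p and the largest fold change of each role group with the block, and for Pcna, Mcm2 and E2f1; of related lists, up to 4 called genes or the 2 with the smallest p are named. For 14 of the 40 genes, among them the called gene Rpa1 and Rfc4, exons overlap those of another annotated gene. Pcna and Tyms have named pseudogenes. The counts of all these genes are less certain. TruSeq RNA v2 does not mark strand. Gene models are from GENCODE M21 and promoters from RefSeq, both on GRCm38 (mm10).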

Additional observations from a re-analysis of the deposited data

How the results depend on the processing

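Without the block, every alternative (size factors, library size only, no filter, DESeq2, limma-voom and each library left out in turn) also called 0 of the 40 genes, and only DESeq2 called any gene, with 2 higher and 8 lower. With 1 library left out, counts of calls ran from 0 to 0 in edgeR. The replicate block alone called 2 of the 40 genes, 1 of the related replication genes, and 53 higher and 284 lower genes in all. With GC and length offsets added to the block the counts were 2 of the 40 genes, 4 of the related replication genes, and 162 higher and 300 lower genes in all. With size factors and the block they were 2 of the 40 genes, 1 of the related replication genes, and 56 higher and 280 lower genes in all. With library size only and the block they were 2 of the 40 genes, 1 of the related replication genes, and 58 higher and 307 lower genes in all. DESeq2 with the block gave 2 of the 40 genes, 0 of the related replication genes, and 53 higher and 288 lower genes in all. limma-voom with the block gave 2 of the 40 genes, 1 of the related replication genes, and 63 higher and 316 lower genes in all. No filter with the block, chosen after seeing the data, gave 2 of the 40 genes, 3 of the related replication genes, and 116 higher and 386 lower genes in all. Rrm1 and Rpa1 were the 2 called genes of the 40 in each of these fits with all pairs. With the block but without pair 1 the counts were 2 of the 40 genes, 1 of the related replication genes, and 134 higher and 519 lower genes in all. Without pair 2 the counts were 0 of the 40 genes, 0 of the related replication genes, and 9 higher and 119 lower genes in all. Without pair 3 the counts were 0 of the 40 genes, 0 of the related replication genes, and 3 higher and 41 lower genes in all. The median log2 fold change of the 40 genes was 0.18 without the block and between 0.18 and 0.21 under the other scalings, filters, tools and the block with all pairs, 0.12 to 0.25 with the block and a pair left out, and 0.0055 to 0.40 with a library left out. Leaving out 1 library without the block turned the sign for 22 of the 40 genes, none of them called, with ranges of the log2 fold change over the 6 fits of Cdc45 (-0.037 to 0.44), Cdt1 (-0.028 to 0.23), E2f1 (-0.13 to 0.18), Fen1 (-0.089 to 0.35), Gins1 (-0.33 to 0.52), Gins2 (-0.088 to 0.42), Gins3 (-0.049 to 0.22), Mcm4 (-0.053 to 0.39), Mcm5 (-0.056 to 0.51), Mcm6 (-8.1e-06 to 0.44), Mcm7 (-0.0011 to 0.35), Orc1 (-0.0024 to 0.42), Pcna (-0.089 to 0.41), Pola1 (-0.095 to 0.38), Pola2 (-0.10 to 0.078), Pold1 (-0.044 to 0.20), Rfc4 (-0.030 to 0.12), Rfc5 (-0.034 to 0.39), Rpa2 (-0.086 to 0.39), Rrm2 (-0.085 to 0.79), Tyms (-0.18 to 0.34) and Uhrf1 (-0.021 to 0.54). E2f1, at -0.00054 without the block, was above 0 in 14 other settings that kept every library or left out a pair, at 0.0017, 0.0026, 0.0040, 0.0048, 0.0061, 0.0092, 0.0099, 0.0100, 0.011, 0.017, 0.029, 0.046 and 0.061. Under the block with GC and length offsets the sign turned for Pola2 (0.015). Under the block without pair 1 the sign turned for Tyms (-0.021) and Rfc5 (-0.025). Under the block without pair 2 the sign turned for Pola2 (0.048) and Rfc4 (-0.0075). Under the block without pair 3 the sign turned for Gins1 (-0.17) and Pold1 (-0.036). The cause of these changes was not tested. Depth limits Gins1 most, with 43 counts in its lowest library.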
